A study of Homo sapiens with 7 samples.

Results

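The regions described here are places on the genome of THP-1 cells where the vitamin D receptor (VDR) was called after hormone and in no solvent control, and which lie close to a place called in every library. THP-1 is an established human cell line of acute monocytic leukaemia origin. Cells received 100 nM of 1α,25-dihydroxyvitamin D3, here 1,25D, or 0.1% ethanol (EtOH) as the solvent for 8 h, with 3 libraries per treatment. VDR-bound DNA was recovered by ChIPmentation, in which a transposase adds sequencing adapters to the immunoprecipitated chromatin. The 1 input library was left out. Whether replicates are separate cultures is not stated in the labels, so the spread between libraries may be technical, and all values come from 1 leukaemia line.

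VDR is a nuclear receptor that binds DNA mostly as a heterodimer with a retinoid X receptor, on paired half-sites of a response element. Some of it sits on chromatin without ligand, and the active hormone raises its occupancy and the number of places at which it can be detected. Monocytes are a classical target of the hormone, which acts there on innate immune genes and on differentiation. Distal sites that lie near each other can contact the same gene, so a persistent site and its neighbours are usually looked at together.

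Members were chosen from 5 peak lists, those of 1,25D replicates 1 and 3 and of EtOH replicates 1 to 3, up to position 90175161 of chromosome 5 in file order (chromosomes 1, 10 to 22, 2, 3, 4 and the start of 5). Peaks that shared at least 1 bp were merged into sites. A hormone-only site had a peak in both 1,25D lists and in no EtOH list, and a persistent site had a peak in all 5. A hormone-only site became a member when its centre lay within 200 kb of a persistent centre. Of 50857 sites, 1204 were hormone-only (2.37%) and 612 were persistent. The members were 279 of the 1204, and the other 925 are called isolated below. The members' absence from the EtOH lists is fixed by that choice and is no result. The compared stretch held 9433 and 8620 peaks of 1,25D replicates 1 and 3 and 9248, 21369 and 10389 peaks of EtOH replicates 1, 2 and 3. The list of 1,25D replicate 2 was not part of the choice and ended on chromosome 16 at 50293713. It served as a library outside the rule over the first part of the genome. Whether it is a culture separate from the other 1,25D replicates is not stated. With 1,25D replicate 1 left out the count was 1136 and with 1,25D replicate 3 left out it was 1165, since a peak in 1 1,25D list was then enough. With a fold of 5 or more required of every peak it was 64. EtOH peaks of lower fold were then dropped as well, so sites of this setting can hold a weaker EtOH peak. A persistent site also needed that fold in all 5 lists.

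Positions are printed as listed by the authors, on build hg19. Sites are named by position, because the gene and promoter tables used here are of another build, and no base sequence is shown for the same reason. Read counts are not part of the lists, so sequencing depth is unknown. A missing peak means that the caller's threshold was not passed in that library, not that VDR was absent.

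The members were sites of moderate enrichment. The fold is the authors' own value for each peak, its enrichment over the background of their peak caller. Over the members it ran from 1.82 to 11.1 in 1,25D replicate 1, with a median of 4.24, and from 1.98 to 13.1 in 1,25D replicate 3, with a median of 4.71. Their persistent neighbours were stronger, with a median of the mean fold of 10.2 after 1,25D and 5.51 after EtOH. In both 1,25D lists 226 members had a lower fold than the nearest persistent site and 19 had a higher one. A persistent site had to be called in all 5 lists and a member in no EtOH list. The choice itself thus favours higher folds at persistent sites, and this comparison is a description. A mean fold of 5 or more was reached by 116 members (41.6%) and by 389 isolated sites (42.1%). One of 10 or more was reached by 2 members (0.717%) and by 24 isolated sites (2.59%). The highest mean fold was 10.8 for a member and 19.0 for an isolated site. The median length of a member was 321 bp, and that of an isolated site 347 bp. The fold differed by 2 times or more between the 1,25D lists at 11 members (3.94%). Across members, the log2 folds of the 1,25D lists had a Pearson r of 0.54 and a Spearman rho of 0.50 (n = 279 sites, which share 2 libraries).

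**Figure D1:**
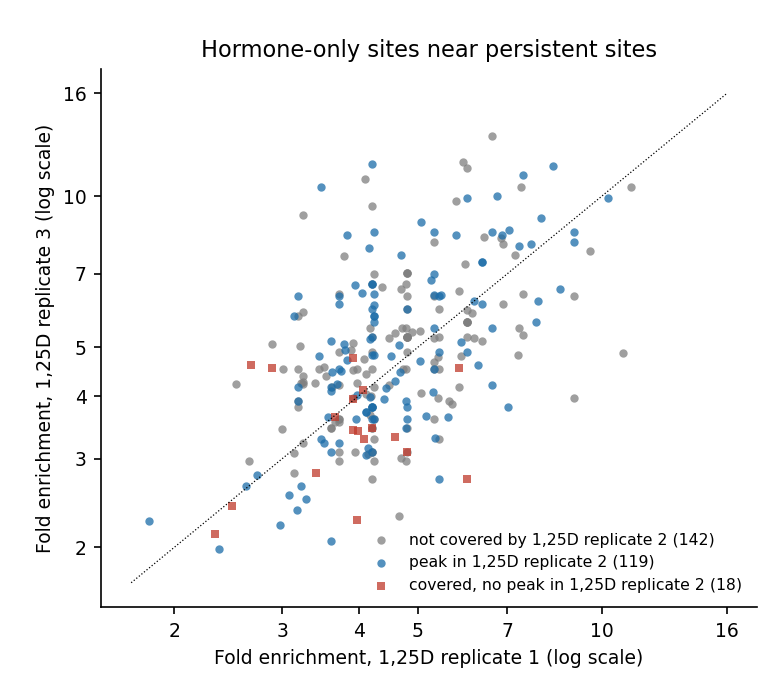
Each point is 1 of the 279 members, with its fold in 1,25D replicate 1 on the x axis and in 1,25D replicate 3 on the y axis, both on log scales, and a dotted line of equal folds. The 18 members without a peak in 1,25D replicate 2 (squares) lie at mean folds of 2.23 to 5.19.

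The 1,25D replicate 2 list, which played no part in choosing the members, held most of them. It covered 137 members and had a peak at 119, or 86.9% (exact Clopper-Pearson 95% interval 80.0% to 92.0%, for counting error only). Over all 27600 sites of the first part the share was 7.86%. It was 9.85% for sites called in a single one of the 1,25D lists used by the rule (611 of 6204), 0.769% for sites called in a single EtOH list (147 of 19114) and 99.0% for persistent sites (298 of 301). Isolated hormone-only sites had a peak there at 379 of 440, or 86.1% (interval 82.6% to 89.2%), so members and isolated sites had like shares and overlapping intervals. With only 1 1,25D list required for membership the share was 34.8% without replicate 1 and 23.0% without replicate 3.

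Recovery in that library followed the fold in the others. Of members with a mean fold under 4, 29 of 43 had a peak there (67.4%). At a mean fold of 4 to 5 it was 37 of 40 (92.5%), at 5 to 7 it was 36 of 37 (97.3%) and at 7 or more it was 17 of 17. The isolated sites gave 66.9%, 86.7%, 98.4% and 100% in the same strata. The members found had a median fold of 5.25 in 1,25D replicate 2, with 42 above and 26 below both other 1,25D lists. The 18 members without a peak there had a median mean fold of 3.71 in the other lists, against 4.73 for those found. At 7 members the replicate 2 peak also reached another site, so the peak there is not the member's alone. At 3 of the 7 that other site had an EtOH peak, and at 2 of these 3 it was the persistent neighbour.

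**Figure D2:**
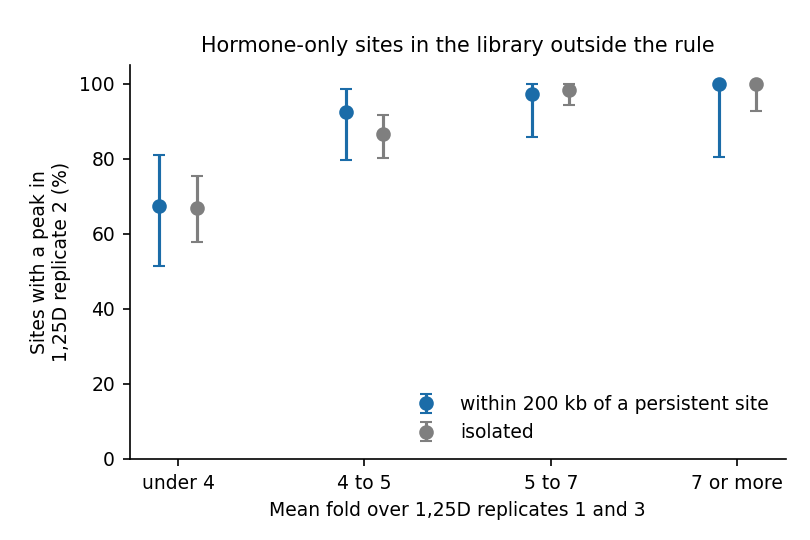
Share of hormone-only sites with a peak in 1,25D replicate 2 (y axis, percent) by mean fold over 1,25D replicates 1 and 3 (x axis), for members and isolated sites, with exact 95% intervals. Both kinds of site rise from about 67% under a fold of 4 to 100% at 7 or more.

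Among the strongest members, the first by rank within the lists was on chromosome 22 at 22723411 to 22723881. Its fold was 11.1 in 1,25D replicate 1 and 10.4 in replicate 3, with p-values from the authors of 6.49e-22 and 1.59e-19. A second member, at 22728302 to 22728954, followed about 5 kb away (4.98 kb between centres) with folds of 6.01 and 11.3. Both lay about 50 kb from 1 persistent site at 22776880 to 22777741, whose folds were 12.9 and 13.7 after 1,25D and 5.03, 9.83 and 5.78 after EtOH. After hormone the first of these members was close in strength to its persistent neighbour, and the second was so in replicate 3.

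Next came a member on chromosome 16 at 31264953 to 31265404, with folds of 10.2, 10.9 and 9.91 in 1,25D replicates 1, 2 and 3. It stood 50.5 kb from a persistent site of lower fold, at 31214294 to 31215041, which had 5.37, 8.40 and 6.87 after 1,25D and 4.10, 4.40 and 3.21 after EtOH. In each of the 3 1,25D lists the hormone-only site was the stronger of this pair. The member on chromosome 10 at 72091395 to 72091728 had folds of 8.33, 10.2 and 11.5 in replicates 1, 2 and 3, and lay 20.9 kb from a persistent site with 14.4, 11.8 and 12.8 after 1,25D and 4.17, 6.23 and 4.40 after EtOH.

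The replicates did not always give the same strength. On chromosome 4 the member between 141159370 and 141159737 reached 6.61 in 1,25D replicate 1 and 13.1 in replicate 3, the widest gap among the 20 highest-ranked members. On chromosome 22, at 37763987 to 37764551, the folds were 5.92 and 11.7, and on chromosome 2, at 43362705 to 43363434, they were 7.39 and 10.4. Others were even. Chromosome 14 at 80755604 to 80756007 had 9.02, 6.77 and 8.48 in replicates 1, 2 and 3, and chromosome 13 at 46674302 to 46674703 had 9.02, 7.94 and 8.12. Chromosome 14 at 105120435 to 105120906 had 7.64, 7.68 and 8.03, the narrowest range of these 3. The remaining members of the top 20 had mean folds between 7.54 and 9.21.

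The highest fold of a member in 1,25D replicate 2 was 18.7, on chromosome 1 at 150381890 to 150382688, where replicates 1 and 3 had 7.43 and 11.0. There the replicate 2 peak ran on into the persistent site 46 bp away. On chromosome 1 at 203338891 to 203339152 the replicate 2 fold was 14.4 against 3.61 and 4.09. That peak also covered another site called in some of the lists, which had an EtOH peak. The members on chromosome 1 at 222134896 to 222135735 and at 31917502 to 31918150 had replicate 2 folds of 13.9 and 11.3, with peaks that reached no other site.

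Closeness to persistent sites was measured for every kind of site. Of the persistent sites themselves, 117 of 612 (19.1%, interval 16.1% to 22.5%) lay within 200 kb of another persistent centre. Within 200 kb of a persistent centre lay 23.2% of the hormone-only sites (interval 20.8% to 25.7%). The share over all sites other than persistent ones was 13.1% (6573 of 50245). It was 14.5% for sites in a single 1,25D list, 11.7% for sites in a single EtOH list and 21.5% (interval 19.9% to 23.2%) for sites called in some lists of other make-up. Of 15 sites called in all 3 EtOH lists and in neither 1,25D list, 8 (53.3%) lay that near, with a wide interval of 26.6% to 78.7%. Hormone-only sites therefore had a higher share than sites of 1 library, and a share like that of sites in some lists. The share of the EtOH-only sites was higher still, but on 15 sites. The intervals are for counting error only and take sites as independent, which sites of 1 neighbourhood are not, so they do not rank the kinds of site. The share changed little with strength, at 26.8% for a mean fold under 4 and 22.1% at 7 or more. It was 23.7% in the part covered by all 6 libraries and 22.6% in the rest. These values rest on the lists that defined the sites and carry no test.

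The make-up of sites changed with distance. Within 10 kb of a persistent centre 5.22% of all non-persistent sites were hormone-only (40 of 766), at 10 to 50 kb 5.71% (78), at 50 to 100 kb 4.41% (70) and at 100 to 200 kb 3.19% (91). Outside the members' range the share was 2.98% at 200 to 400 kb and 2.36% at 400 to 1000 kb. Sites called in some lists of other make-up had a share that fell more steeply, from 15.3% within 10 kb to 7.68% at 10 to 50 kb and 4.53% at 400 to 1000 kb. Sites of a single 1,25D list changed from 26.2% within 10 kb to 23.0% at 400 to 1000 kb, and sites of a single EtOH list from 52.6% to 70.1%. The 2 members just inside the limit, on chromosomes 13 and 2, were 198 kb from a persistent centre and had folds of 4.21 and 4.83 and of 3.18 and 5.76 in 1,25D replicates 1 and 3. The 2 sites just outside, on chromosomes 4 and 16, were 200.2 kb away and had 4.21 and 3.09 and 4.77 and 3.28.

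**Figure D3:**
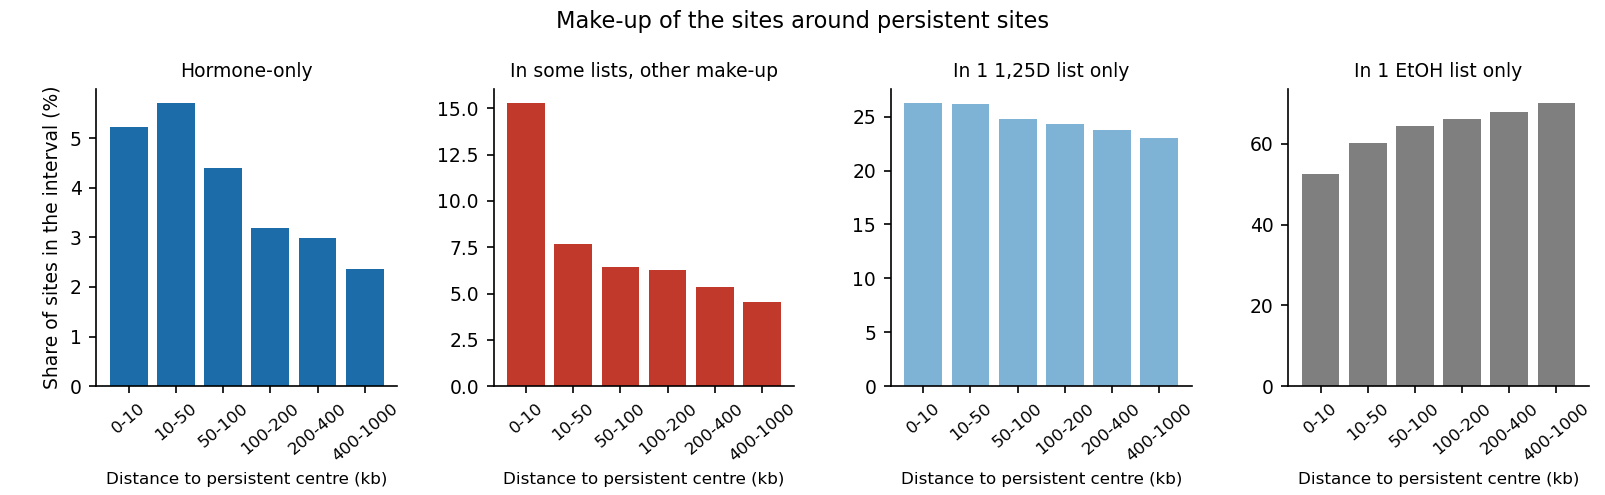
Share of the non-persistent sites in each distance interval (x axis, kb from the nearest persistent centre) that were hormone-only, in some lists of other make-up, in 1 1,25D list only or in 1 EtOH list only (y axes, percent, each from 0 with its own scale). The hormone-only share is highest at 10 to 50 kb (5.71%) and lowest at 400 to 1000 kb (2.36%), the share of sites in some lists falls from 15.3% to 4.53%, and the share of sites of a single EtOH list is lowest nearest the persistent centre.

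The 40 members within 10 kb of a persistent centre had a median mean fold of 4.29, against 4.36 at 10 to 50 kb, 5.03 at 50 to 100 kb and 4.63 at 100 to 200 kb. Of these 40, 17 were separated from their persistent site by 1 kb or less. A persistent site has EtOH peaks by definition, so all 17 had an EtOH peak within 1 kb of their edge, and of the other 23 members 1 had one. Over the 262 members farther than 1 kb from their persistent site, 22 (8.40%) had such a peak, and over isolated sites 62 (6.70%). The closest member, on chromosome 10 at 78840016 to 78840234, ended 42 bp before a persistent site and had folds of 5.41, 5.57 and 2.73 in replicates 1, 2 and 3, where the replicate 2 peak spanned both. Whether the members that close are sites of their own or flanks of the persistent peak was not tested.

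The persistent sites with a member within 200 kb numbered 227 of 612. Their median fold after 1,25D and EtOH was 10.3 and 5.47, and that of the other 385 was 9.56 and 5.54. The ratio of mean fold after 1,25D to mean fold after EtOH had a median of 1.74 (quartiles 1.22 and 2.39) with a member and 1.57 (1.24 and 2.19) without. Both 1,25D lists were above all 3 EtOH lists at 157 of the 227 (69.2%), where the background over all persistent sites was 68%, and below all 3 at 3 (1.32%, background 1.47%). Persistent sites with and without a member were thus alike in this count. When persistent sites were ranked by fold within each list, from 0 for the lowest to 100 for the highest, those with a member had a median rank of 55.4 and 52.2 after 1,25D and of 51.6, 53.0 and 50.7 after EtOH. The 1,25D ranks overlapped the EtOH ranks. The mean difference was 2.0 points, with 6.88 for a window of 50 kb, 5.93 for 100 kb, 0.22 for 400 kb and -0.58 without EtOH replicate 1.

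Members lay singly or in groups. With members linked when their centres were within 200 kb of each other, the 279 formed 196 loci, of which 136 held 1 member and 60 held 2 or more. The rule itself places members that share a persistent site near each other, so these counts are a description. Members of 1 locus share a neighbourhood and are not independent of each other. The persistent sites with the most members gave 3 loci, 2 on chromosome 1 and 1 on chromosome 12.

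The first of these on chromosome 1 had a strong persistent site at 222131067 to 222132552, with folds of 45.1, 34.2 and 45.4 in 1,25D replicates 1, 2 and 3 and of 9.96, 9.44 and 9.25 after EtOH. All 3 1,25D values were far above the EtOH values. Around it were 5 members, all called in 1,25D replicate 2. The pair nearest to it, 1.08 kb before and 3.51 kb after the centre, had folds of 7.81, 7.06 and 5.60 and of 6.86, 13.9 and 8.38 in replicates 1, 2 and 3. A member 10.6 kb before it had 5.05, 8.75 and 8.87. The other members of the group, 181 kb and 177 kb before it, had folds between 3.61 and 8.60.

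On chromosome 12 the persistent site at 125240999 to 125241927 was high under both treatments, with 20.2, 19.7 and 22.6 after 1,25D and 14.2, 18.2 and 15.9 after EtOH. The lowest 1,25D value was above the highest EtOH value by a small margin. Of the 3 persistent sites in reach of this locus it had the most members. Its 5 members had folds of 3.71 to 7.62 and were all called in replicate 2. The members at 125401316 to 125401925 and 125402105 to 125402290 lay side by side, 160 kb and 161 kb from the persistent centre, and were 1 peak of fold 6.58 in replicate 2.

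The locus with the most members was of another kind. On chromosome 1, 7 members lay between 40355978 and 40685519, within reach of 8 persistent sites. Their mean folds were 2.45 to 3.37, among the lowest of all members, and 6 of the 7 had a peak in replicate 2. The persistent site at 40505454 to 40506203 had folds of 11.0, 8.30 and 9.26 after 1,25D and 4.91, 8.13 and 4.26 after EtOH, whereas the one at 40509077 to 40509318 had 3.34, 2.59 and 3.14 and 2.79, 2.80 and 2.59. Sites were dense around it, with 34 sites of a single EtOH list and 18 of a single 1,25D list within 200 kb. The window of chromosome 1 from 40 to 45 Mb held 17 members, 3 isolated sites and 16 persistent sites, more members than any other window of 5 Mb. Without it there were 262 members, or 22.1% of hormone-only sites.

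**Figure D4:**
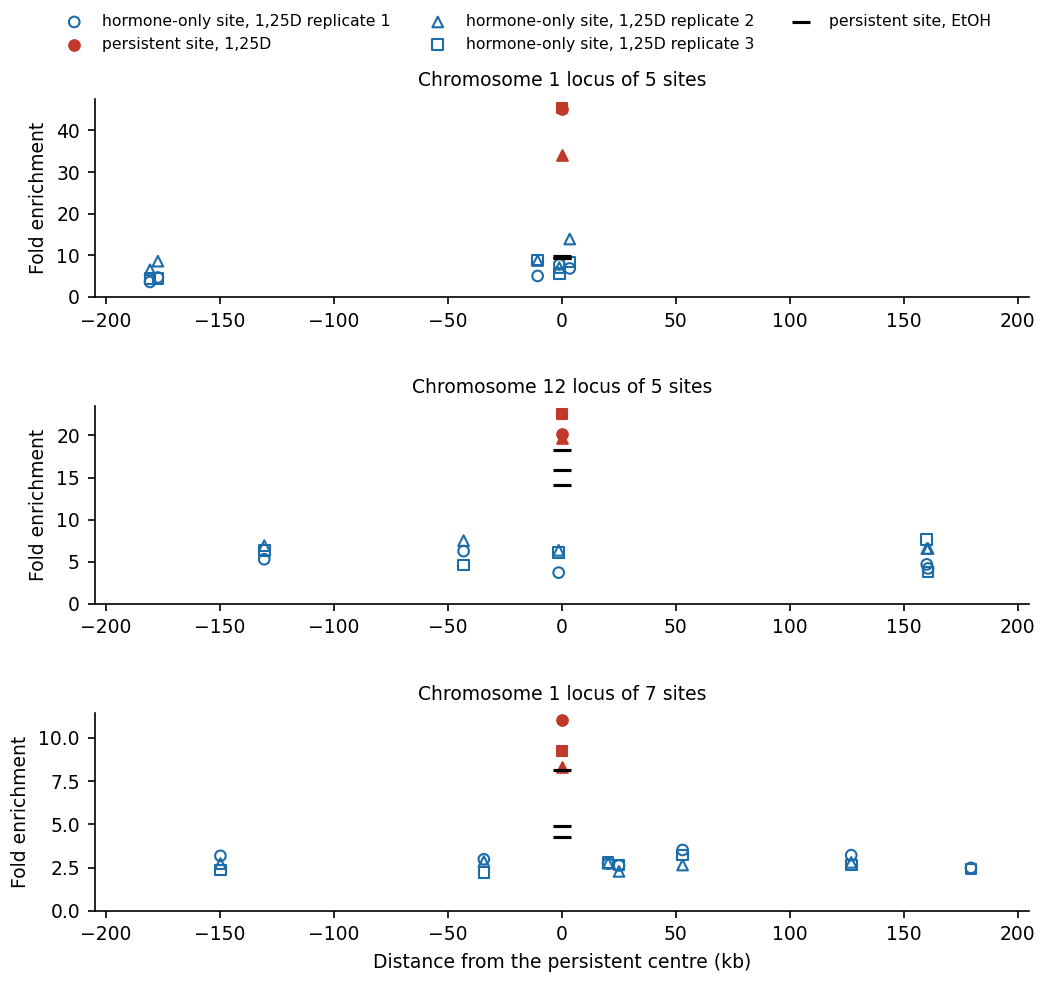
Fold (y axis, each panel with its own scale from 0) of the members and of 1 persistent site at 3 loci against the distance from that site's centre (x axis, kb), with open symbols for members in the 1,25D lists, filled symbols for the persistent site after 1,25D and bars for it after EtOH. In the lower panel the members lie at folds of 2.21 to 3.52, and other persistent sites near it are not drawn.

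By chromosome, members were most numerous on chromosome 1 (59), chromosomes 2 and 3 (27 each) and chromosomes 12 and 19 (19 each). Chromosome 1 also held the most hormone-only sites (196) and the most persistent sites (115). Of the hormone-only sites, 30.1% were members on chromosome 1, 20.1% on chromosome 2, 20.5% on chromosome 3 and 24.1% on chromosome 12. The share of hormone-only sites that were members was 38.5% on chromosome 22 (10 of 26), 36.5% on chromosome 19 (19 of 52) and 33.3% on both chromosomes 20 and 21. It was 13.0% on chromosome 17 and 11.4% on the covered stretch of chromosome 5. Other sites, neither persistent nor hormone-only, moved with it in part. Of these, 21.9% on chromosome 19 and 15.8% on chromosome 22 lay within 200 kb of a persistent centre, against 7.04% on chromosome 4, where 16.9% of hormone-only sites were members. The share of other sites was 18.0% on chromosome 20, 14.0% on chromosome 21 and 10.2% on chromosome 17. It was 19.3% on chromosome 1, 8.28% on chromosome 2, 12.5% on chromosome 3 and 11.5% on chromosome 12. On chromosome 5 it was 10.8%, close to the share of hormone-only sites there.

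A last comparison used peaks outside the persistent and hormone-only sites. It is not independent of the rule, since the persistent centres were set by 5 of the 6 lists compared. Leaving out hormone-only sites also removes peaks of the 1,25D lists only. With those sites kept in, the difference given below was 3.97 points (exact permutation test, p = 0.1). For each library, the share of its peaks outside persistent and hormone-only sites that lay within 200 kb of a persistent centre was counted over the first part of the lists. It was 17.4%, 19.1% and 18.2% in 1,25D replicates 1, 2 and 3 and 15.0%, 14.3% and 15.8% in EtOH replicates 1, 2 and 3. Every 1,25D library was above every EtOH library, with means of 18.2% ± 0.885 and 15.0% ± 0.791 (SD, n = 3 each). Every 1,25D list was also shorter here than every EtOH list. The peaks counted were 4266, 2811 and 3517 in 1,25D replicates 1, 2 and 3 and 4897, 10950 and 5370 in the EtOH replicates. Whether the share follows the length of the list was not tested. The difference was 3.19 percentage points (exact permutation test, two-sided, p = 0.1). A design of 3 against 3 cannot give a smaller p, so the 0.05 threshold could not be reached. With the same highest p-value for all lists the groups overlapped, since EtOH replicate 3 was at 17.22% and 1,25D replicate 1 at 17.18% (difference 3.15 points, exact permutation p = 0.2). In the second part, up to chromosome 5, the shares were 11.7% and 15.4% in 1,25D replicates 1 and 3 and 10.3%, 10.1% and 9.32% in the EtOH libraries, again without overlap (difference 3.63 points, exact permutation p = 0.1, the smallest possible for 2 against 3). The 1,25D lists were again the shorter ones there, with 3245 and 3227 peaks counted against 3644, 9691 and 4312. In the first part the difference between both replicates 1, whose lists end at a lower highest p-value, was 2.34 points. Over replicates 2 and 3 it was 3.61.

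**Figure D5:**
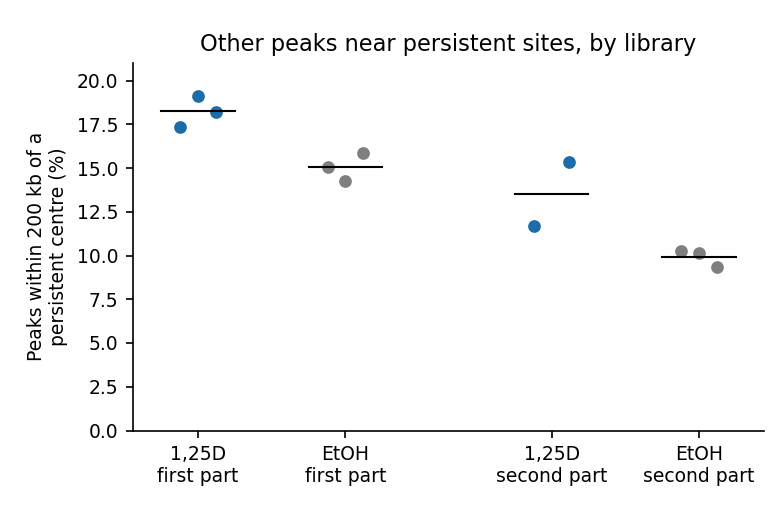
Share of each library's peaks outside persistent and hormone-only sites that lie within 200 kb of a persistent centre (y axis, percent), with 1 point per library and a line at the group mean. The 1,25D libraries lie between 17.4% and 19.1% in the first part and the EtOH libraries between 14.3% and 15.8%.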

How the data were processed

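VDR ChIPmentation peak lists of 6 THP-1 libraries were used. The submitters' processing notes name Bowtie 1.1, MACS2 and the build hg19. For their settings, the use of the input and the removal of duplicates, the notes read here state nothing. Each list belongs to 1 sample. The fold enrichment is a ratio computed by the authors' peak caller, per the file headers, and the p-value of each peak is the authors', per the file headers. The highest p was 0.00433 and 0.00431 in both replicates 1 and 0.00978 to 0.00997 in the others. Of the lists, 3 stopped in mid-line and the incomplete line was left out. No peak was identical between lists, and 0 columns of other samples were used.

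Merging, classing, distances between centres and the exact permutation tests were done in Python 3.11.15 with numpy 2.4.6 and scipy 1.17.1. Peaks sharing at least 1 bp were merged, and a site took the highest fold of a list. Whether listed starts count from 0 or 1 is not stated, so they may be off by 1 bp. The distance classes, fold strata, linked loci and the window of 5 Mb were chosen after seeing the lists. The members and lists were chosen with earlier results of these data known. Named sites are the 20 members with the highest mean percentile of fold, the 5 with the highest fold in 1,25D replicate 2, the persistent sites with the most members (5, with ties kept) and the 2 sites on each side of the limit. The planned motif and gene counts need hg19 and were not run. On simulated lists, 100 of 100 planted near sites were returned among 20556 sites. The simulated background peaks lay on another chromosome than the planted near sites. This checks the working of the code only, and recovery among crowded peaks was not tested. The numbers 1 to 3 of the replicates only name them in the main comparisons.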

Additional observations from a re-analysis of the deposited data

How the results depend on the processing

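The number of members was 118 at a window of 50 kb, 423 at 400 kb, 64 when every peak needed a fold of at least 5, and 116 in the first part with 1,25D replicate 2 also required, and 341 to 1165 with 1 of the 5 lists left out, highest without a 1,25D list. The share of hormone-only sites near a persistent site was 9.80%, 15.6% and 35.1% at 50, 100 and 400 kb, 9.09% with folds of at least 5 and 15.6% to 29.1% with a list left out. The share with a peak in 1,25D replicate 2 was 100% at a fold of 5 or more (36 of 36) and 23.0% to 88.7% with a list left out. In the fold setting, replicate 2 peaks of any fold were counted. The fold setting also dropped EtOH peaks under 5 before classing. Its 704 hormone-only sites can therefore hold weaker EtOH peaks, and its values are not those of the stronger members alone. A persistent site also needed a fold of at least 5 in all 5 lists, so its persistent centres were not those of the rule. With the persistent sites of the rule, the share near one was 22.1% at a mean fold of 7 or more. The rank difference of persistent sites with a member was 6.88 and 5.93 at 50 and 100 kb and -0.58 to 3.22 with a list left out. Where a list was left out fewer lists had to agree, and the cause of these shifts was not tested. With 1 highest p-value for all lists there were 277 members, 22.8% of hormone-only sites, and with 50% overlap 271. The library comparison of other peaks kept its direction under every alternative run, from 2.74 to 3.62 points with a library left out, but with 1 highest p-value the libraries overlapped and its exact permutation p was 0.2. With the replicate block the difference was 3.19 (exact p = 0.25, the smallest for 3 pairs). Over 298 persistent sites the same-numbered libraries' deviations of log2 fold had a Pearson r of 0.0914, -0.00582 and -0.0174. Libraries of unlike number had values from -0.0911 to 0.0950. No pairing by number showed in these folds, but they cannot tell whether same-numbered libraries share a culture. The setting without the 40 to 45 Mb window of chromosome 1, and that on replicate 2 peaks reaching the persistent neighbour (85.4%), were chosen after seeing the data. Depth is unknown, so no value says how far a missing peak lay below the threshold.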

Other observations

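Some members were stronger after hormone than the persistent site nearest to them. Of the 19 members above it in both 1,25D lists, the pair with the highest ratio lay on chromosome 3 at 4631617 to 4631938 and 4793811 to 4794172, 138 kb and 24.0 kb from the same persistent site. Each of the pair had folds of 6.01 and 5.60 in 1,25D replicates 1 and 3, and the same fold values recur at other peaks of these lists. The persistent site had 3.25 and 2.81 after 1,25D and 4.76, 3.67 and 4.75 after EtOH, so there both 1,25D values were below all 3 EtOH values. On chromosome 1 the member at 153571273 to 153571619 had 4.16, 3.87 and 7.89 in replicates 1, 2 and 3, and an EtOH peak lay 138 bp from its edge. Its persistent site had 2.74, 4.55 and 4.27 after 1,25D and 7.32, 3.97 and 3.72 after EtOH, where the groups overlapped. These sites were chosen after their values were seen.

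In the window of chromosome 1 from 40 to 45 Mb a given fold went with a lower p-value than elsewhere. Peaks with a fold of 2.5 to 3.5 had a median p of 2.65e-05 there and 0.000315 elsewhere in 1,25D replicate 1, 5.91e-05 and 0.000914 in replicate 3, and 2.22e-05 and 0.000358 in EtOH replicate 1. Of the 17 members there, 7 had a fold below 3 in both 1,25D lists, against 1 of the 262 members elsewhere. The other lists differed in the same direction, and the cause was not tested.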
